A study of Mus musculus with 49 samples.

Results

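dediHeps, the expandable progenitor-like cells that arise when mouse hepatocytes dedifferentiate in monolayer, can be moved into either of 2 three-dimensional cultures, and the 2 products were compared here gene by gene. One product is the dediHep aggregate, a culture meant to bring back hepatocytes. The other is the dediHep-derived spherical organoid (dediHep-SO), a culture meant to give intestinal epithelium. The comparison took all 3 libraries labelled as aggregation cultured dediHeps and all 3 labelled as spherical organoid cultured dediHeps, 6 of the 49 libraries of the series. No measured value entered that choice.

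All 6 libraries came from wild-type C57BL/6J cells labelled as hepatocytes of the liver, isolated from mice that were 10 weeks old and grown as dediHeps in monolayer with epidermal growth factor (EGF) at 20 ng/mL. For aggregates, dediHeps were left to clump in ultra-low attachment multiwell plates with a poly 2-hydroxyethyl methacrylate coat, in a medium used for hepatocyte maturation. For dediHep-SOs, the cells were put in Matrigel, a basement membrane gel rich in laminin, in an intestinal organoid medium with Wnt3a, the GSK3 inhibitor CHIR99021, EGF, Noggin and R-spondin1 (WCENR), and were passaged as organoids. The labels give the genotype as WT, and name no transgene. Geometry, matrix, medium, time in culture and passage differ together between the 2 groups and cannot be told apart. Each column name of the count table ends in a code, which was read here as the culture of origin, although no label says what it stands for. Aggregate replicate 1 and SO replicate 1 share a code, as do aggregate replicate 2 and SO replicate 3. Aggregate replicate 3 and SO replicate 2 have no partner between the groups.

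The liver and the small intestine both form from endoderm. Hepatocytes secrete most plasma proteins, detoxify drugs, make urea and bile, and depend on a network of factors that includes Hnf4a, Foxa proteins and Cebpa. The intestinal epithelium renews from Lgr5+ stem cells at the crypt base, which rely on canonical Wnt signaling, and its identity rests on Cdx2, with Hnf4a shared by both organs. Fetal intestinal progenitor cells (FIPCs) grow as spheres in Wnt-rich gels, while adult intestinal stem cells (ISCs) form budding organoids (BOs).

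CEL-Seq2 counts unique molecular identifiers (UMIs) at the 3′ ends of transcripts. Totals ran from 1362169 to 2356830 counts in aggregates and from 1897762 to 2931078 in dediHep-SOs, so that 3 counts in a library stand for 0.962 to 2.5 CPM (counts scaled to a common library total, TMM factors included). Mitochondrial transcripts took 1.26% to 2.05% of counts. Ribosomal protein transcripts took 1.71% to 1.92% of the counts of aggregates and 2.95% to 3.00% of those of dediHep-SOs. Spearman correlations over genes were 0.916 to 0.931 within aggregates, 0.860 to 0.968 within dediHep-SOs and 0.603 to 0.702 between the groups. SO replicate 3 stood apart from the other SO libraries, and calls that were lost without it are named below. The UMI has 6 bases, so no gene can exceed 4096 counts in a library. In these libraries 225 genes were above 2048 counts, 53 of them called lower and 10 called higher in dediHep-SOs, and differences of such genes are compressed. In bulk RNA, fewer cells of a kind and less RNA per cell cannot be told apart.

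Of 46078 genes in the table, 20651 had a count in the 6 libraries and 11056 passed the filter on low counts and were tested. A gene could pass through its counts in either group alone, so the share of a list that was called depends partly on the filter. A gene is termed called when its adjusted p (false discovery rate, FDR) was under 0.1 and its log2 fold change over 2 in size. Between dediHep-SOs and aggregates 1642 genes were called, 14.9% of those tested. Of these, 889 were higher in dediHep-SOs (8.04% of genes tested) and 753 were lower (6.81%). The libraries of the 2 groups did not overlap for 881 of the 889 and 736 of the 753 genes, where 44.5% of all genes tested did not overlap (22.3% with dediHep-SOs above and 22.2% with dediHep-SOs below). No count was found in any aggregate for 112 of the genes called higher, and none in any dediHep-SO for 135 of those called lower. For those genes a fold change is given as a lower bound, computed against 3 counts over the group. Within the 2 pairs of libraries that share a code, 886 of the 889 and 747 of the 753 genes differed in the direction of the call in both. Without SO replicate 3, 974 genes were called higher and 887 lower.

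**Figure D1:**
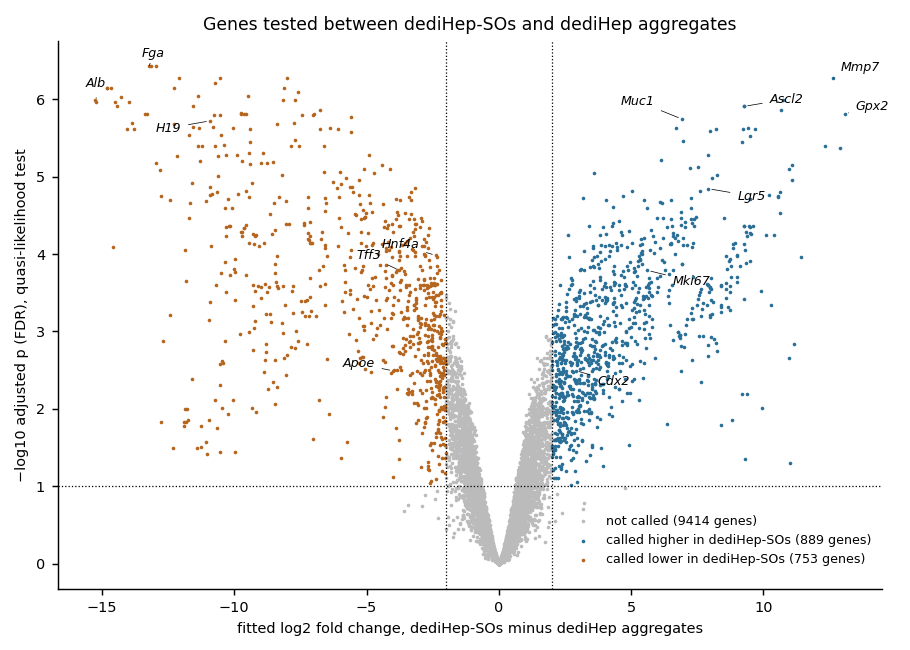
Fitted log2 fold change (dediHep-SOs minus aggregates, x axis) against −log10 of the adjusted p (y axis) for the 11056 genes tested, with dotted lines at the thresholds. The 889 genes called higher in dediHep-SOs lie to the right and the 753 called lower to the left, with Mmp7 and Gpx2 at the right edge and Alb and Fga at the left.

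Plasma proteins made by hepatocytes had the most negative median of the 31 gene lists examined. Of 39 such genes in the table, 35 were tested, 34 were called lower in dediHep-SOs and 0 higher. The median log2 fold change was −11.22, or −8.85 with genes absent from dediHep-SOs at their lower bound, beside 0.04 over all genes tested. Without SO replicate 3, 27 were called lower. Summed over the list, these genes held 26510 to 37874 CPM in aggregates and 1096 to 1656 CPM in dediHep-SOs. Alb (ENSMUSG00000029368, chromosome 5, 90460897 to 90476602, GRCm38), which encodes albumin, had 3725, 3834 and 3816 counts in aggregate replicates 1, 2 and 3 and 0 counts in all 3 dediHep-SOs. Its level in aggregates was thus at least 5095-fold higher. All 3 aggregate counts stood close to the UMI limit, so that the CPM of 3099, 1697 and 1970 follow the library totals as much as the transcript. Ahsg, which encodes fetuin-A, was likewise at 0 in dediHep-SOs and at least 5266-fold higher in aggregates.

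Transferrin and Rbp4 were the plasma protein genes with the highest levels left in dediHep-SOs. Trf had 2051, 1681 and 1714 CPM in aggregates and 514, 568 and 659 CPM in dediHep-SOs, a log2 fold change of −1.65 ± 0.25 (SE), with an FDR of 0.000538 but too small a fold to be called. Rbp4, the retinol carrier, was at 3197, 1785 and 1962 CPM in aggregates and 612, 791 and 262 CPM in dediHep-SOs (log2 fold change −2.06 ± 0.41), and its call was lost without aggregate replicate 1 and without SO replicate 3. Ttr, which encodes the thyroxine carrier transthyretin, kept 37.2, 26.0 and 14.1 CPM in dediHep-SOs against 2834, 1751 and 1960 CPM in aggregates. Afp, the fetal counterpart of albumin, was low in both cultures, at 9.15, 88.5 and 13.4 CPM in aggregates and 2.57, 2.00 and 0.937 CPM in dediHep-SOs (log2 fold change −4.28 ± 0.93). The acute phase genes among the list varied between aggregates. Serpina3k had 15, 272 and 1517 counts and Orm1 23, 82 and 824 counts in aggregate replicates 1, 2 and 3, with 0 counts in every dediHep-SO. Saa1, which encodes serum amyloid A, followed with 215, 300 and 1315 counts. Aggregate replicate 3 was the highest for all 3 genes, and the calls of Serpina3k and Orm1 were lost without SO replicate 3 and without the filter on low counts.

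The promoters of several of these genes hold GTTAAT, a motif long known from the albumin promoter. It was sought on both strands in the RefSeq promoter windows of build GRCm38.p6, from 250 bases before to 50 bases after each gene start, counting a gene once if any of its windows held it. Of the 35 plasma protein genes tested, 28 matched an entry and 13 of these held the motif (46.4%), where 2228 of all 27025 genes with an entry did (8.24%). With the Serpina1 paralogs counted once, 9 of 24 held it. A match describes the sequence and does not show that a factor binds. Windows around matches are shown for genes among the most strongly differing ones, read on the strand of the gene, with the match in capitals. Fga and Fgb belong to the complement and coagulation list given below and are not part of the counts above. Their match is on the opposite strand and reads ATTAAC. The Serpina1 windows were the same in sequence from a through e, and the separate counts of those paralogs are uncertain.
Alb, chr5:90460829-90460852, plus strand: gtaagtatgGTTAATgatctacag
Gc, chr5:89457936-89457959, minus strand: agtgacaaaGTTAATgattaaaac
Serpina1a, chr12:103863626-103863649, minus strand: gtgacattgGTTAATattcactag
Serpina1b, chr12:103738201-103738224, minus strand: gtgacattgGTTAATattcactag
Fga, chr3:83026101-83026124, plus strand: agggtgatgATTAACctcctgccg
Fgb, chr3:83049878-83049901, minus strand: atgtcaaatATTAACtaaagggag

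All 6 of these genes, picked for their strong differences, were called lower in dediHep-SOs. C4bp, of the complement and coagulation list, also held GTTAAT but was not called (log2 fold change −1.45 ± 0.33). Gc, the vitamin D carrier, kept 13, 14 and 9 counts in dediHep-SOs against 1663, 2695 and 2637 in aggregates (log2 fold change −8.0 ± 0.37). Serpina1b was at 0 in dediHep-SOs and at least 3994-fold higher in aggregates, and Serpina1a had a single count in SO replicate 2 against 1991, 3254 and 3133 in aggregates.

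Complement and coagulation genes showed the same direction. Of 45 in the list, 34 were tested, 30 were called lower and 0 higher, with a median log2 fold change of −9.29 (−7.02 with lower bounds). Fga (chromosome 3, 83026076 to 83033627), the fibrinogen alpha chain, had 2407, 3776 and 3807 counts in aggregates and 0, 0 and 1 in dediHep-SOs, and had the smallest p of all genes tested (FDR 3.69e-07). By counts it was 13424-fold higher in aggregates, with a 95% counting interval of 2409 to 530270. Fgg, the gamma chain, was at least 3788-fold higher. F2, which encodes prothrombin, had 684, 738 and 1681 counts in aggregates and 0, 1 and 1 in dediHep-SOs. Kng1, which encodes kininogen, had 916, 1855 and 1938 counts against 0, 0 and 1. The other 4 tested were not called. C4bp, a brake on complement, remained at 331, 307 and 198 CPM in dediHep-SOs beside 982, 512 and 790 CPM in aggregates. F5 overlapped between the groups, at 26.6, 102 and 71.2 CPM in aggregates and 55.5, 49.4 and 24.8 CPM in dediHep-SOs. C3, the central complement protein, was called lower but was far from absent, at 312, 248 and 152 CPM in dediHep-SOs and 1568, 1269 and 1578 CPM in aggregates (log2 fold change −2.63 ± 0.32).

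Genes of lipid transport were called lower for 20 of 23 tested and higher for 0, with a median of −7.69 (−6.77 with lower bounds). Apoa1, the main protein of high density lipoprotein, had 3793, 4062 and 3952 counts in aggregates and 3, 0 and 0 in dediHep-SOs. Apob, the backbone of very low density lipoprotein, kept 28, 16 and 26 counts in dediHep-SOs against 737, 731 and 372 (log2 fold change −5.27 ± 0.50). Apoe stood at 484, 1667 and 2027 CPM in aggregates and 142, 92.9 and 27.2 CPM in dediHep-SOs (−3.99 ± 0.71, FDR 0.00323). Lpl, lipoprotein lipase, was at 1196, 711 and 891 CPM in aggregates and no more than 2.50 CPM in any dediHep-SO. Scarb1, the receptor that takes up lipid from high density lipoprotein, was among those not called, at 29.1, 55.8 and 104 CPM in aggregates and 18.9, 22.5 and 15.5 CPM in dediHep-SOs (−1.74 ± 0.46).

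Drug metabolism genes, 51 tested of 86 in the table, were called lower for 42 and higher for 0 (median −5.98, or −5.79 with lower bounds). Cyp2c29 was at 2787, 798 and 840 CPM in aggregates with 0 counts in dediHep-SOs, at least 3037-fold higher in aggregates. Cyp1a2, the caffeine-metabolising P450, had 108, 54 and 176 counts against 0 and was at least 151-fold higher. Cyp2d10 kept 8.66, 5.49 and 3.75 CPM in dediHep-SOs, beside 1287, 969 and 1291 CPM. Cyp3a11 varied widely between aggregates, at 669, 38.1 and 127 CPM, with 1 count in the dediHep-SOs together, and its call was lost without SO replicate 3. Several conjugating enzymes were not called. The glutathione transferase Gsta4 had 769, 701 and 298 CPM in aggregates and 602, 651 and 427 CPM in dediHep-SOs, and Por, the reductase that feeds electrons to P450s, had 156, 196 and 281 CPM against 194, 120 and 142 CPM.

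The urea cycle and amino acid breakdown were called lower for 27 of 32 genes tested and higher for 0 (median −6.85, or −5.67 with lower bounds). The mitochondrial steps of the urea cycle were nearly absent from dediHep-SOs. Cps1 had 672, 689 and 1763 counts in aggregates and 0, 0 and 1 in dediHep-SOs, and Otc had 1447, 1461 and 387 against 0, 1 and 5. Arg1, the last step, was at 71.5, 56.2 and 556 CPM in aggregates and 0 in dediHep-SOs, at least 578-fold higher, although its call was lost without SO replicate 3, with DESeq2 and without the filter on low counts. The cytosolic steps between them were not called. Ass1 had 121, 140 and 116 CPM in aggregates and 70.9, 45.9 and 45.0 CPM in dediHep-SOs, and Asl had 466, 399 and 546 CPM against 206, 152 and 77.3 CPM. Hpd, of tyrosine breakdown, was at least 441-fold higher in aggregates, and Fah, the last enzyme of that pathway, had 239, 278 and 243 CPM against 12.2, 6.99 and 2.34 CPM.

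Bile acid genes were called lower for 17 of 21 tested and higher for 0 (median −7.79, or −5.93 with lower bounds). The canalicular export pump Abcb11 was at least 267-fold higher and the basolateral uptake carrier Slc10a1 at least 119-fold higher in aggregates, both at 0 counts in dediHep-SOs. Of 16 genes of gluconeogenesis and glycogen 10 were called lower and 0 higher (median −3.16). G6pc, which releases free glucose, had 26, 20 and 80 counts in aggregates and 0 in dediHep-SOs. Fatty acid oxidation was less uniform, with 15 of 28 called lower and 0 higher (median −2.07). Cpt1a, which admits fatty acids into mitochondria, was at 259, 468 and 327 CPM against 75.3, 75.9 and 80.2 CPM (log2 fold change −2.19 ± 0.32, a call lost without aggregate replicate 2).

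Hepatocyte transcription factors had a median closer to that of all genes tested than each list of hepatocyte functions given above. Of 24 tested, 11 were called lower, 1 higher and 12 were not called, and the median difference was −1.54 on the log2 scale. Hnf4a (chromosome 2, 163506808 to 163572910), a nuclear receptor of liver and gut, was at 416, 511 and 465 CPM in aggregates and 96.8, 76.9 and 92.8 CPM in dediHep-SOs, and the libraries did not overlap (−2.38 ± 0.28, FDR 0.000104). Foxa2, a pioneer factor, had 276, 258 and 245 CPM against 192, 183 and 172 CPM (−0.51 ± 0.27), and its relative Foxa3 had 187, 141 and 116 CPM against 51.6, 41.9 and 47.8 CPM (−1.64 ± 0.32). Neither was called, and both were present in every dediHep-SO.

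Other factors of the list were close to the floor in dediHep-SOs. Ppara, the fatty acid sensor, had 28, 158 and 102 counts in aggregates and 0, 0 and 1 in dediHep-SOs. Creb3l3 had 688, 468 and 957 CPM against 0.641, 0 and 2.34 CPM. Prox1, an early hepatoblast factor, had 833, 402 and 572 CPM against 5.77, 13 and 17.8 CPM (−5.64 ± 0.49). The drug receptor Nr1i2 (−5.20 ± 0.55), the bile acid receptor Nr1h4 (−3.82 ± 0.37) and Cebpa (−3.56 ± 0.40) were also called lower. The factor called higher was Tbx3, known from hepatoblasts, with 1.66, 0 and 1.55 CPM in aggregates and 96.2, 67.4 and 40.8 CPM in dediHep-SOs (6.08 ± 0.70).

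**Figure D2:**
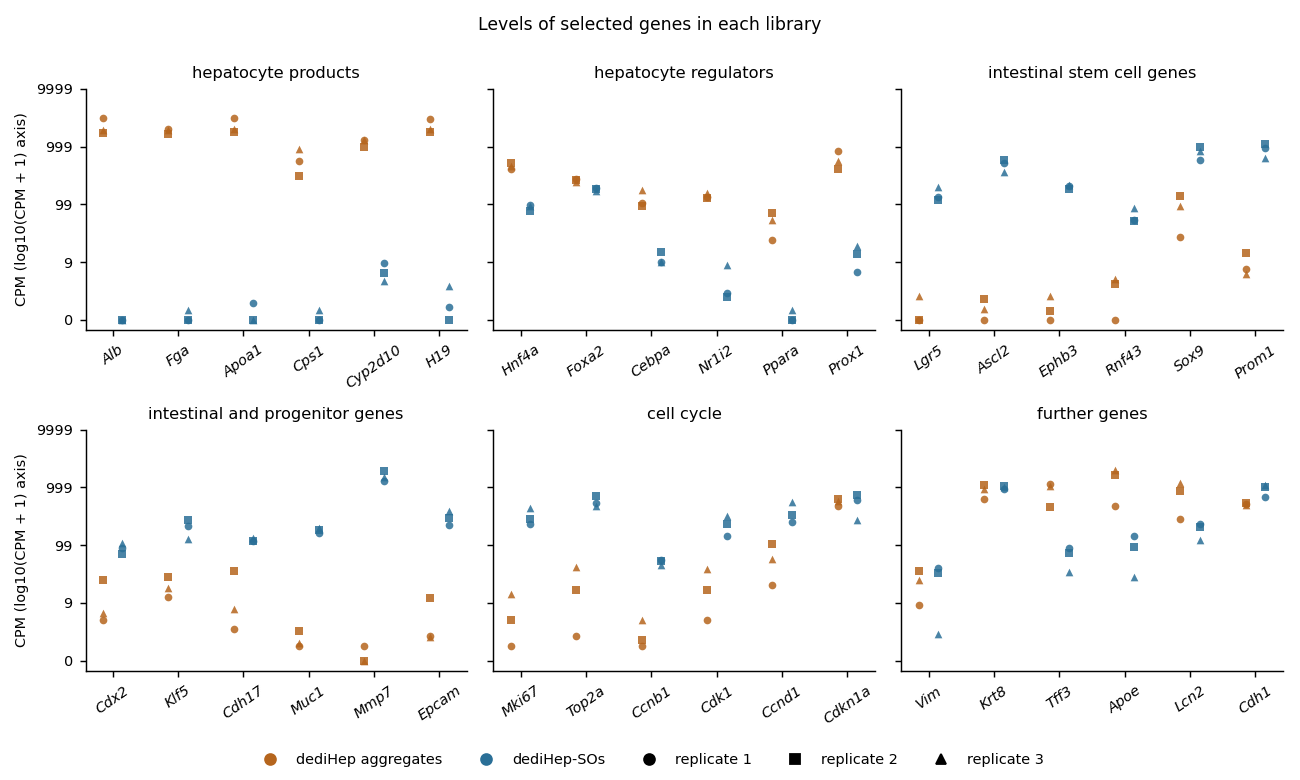
CPM of selected genes in each of the 6 libraries, on a log10(CPM + 1) axis, with colors for the 2 groups and marker shapes for the 3 replicates of each. Alb and Fga are high in all aggregates and at or near 0 in dediHep-SOs, Lgr5, Ascl2 and Mmp7 show the reverse, and Krt8 and Cdkn1a overlap between the groups.

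Wnt-driven genes of intestinal stem cells had the highest median in dediHep-SOs of the lists with more than 2 genes tested. Of 31 in the list, 17 were tested, 16 were called higher and 0 lower, with a median log2 fold change of 5.77 (5.44 with lower bounds). The other 14 were too low in both groups to pass the filter. Members without a count in aggregates, such as Ephb2, passed only through dediHep-SOs. The share called and the median thus depend partly on the filter. Summed over the list they held 286 to 437 CPM in aggregates and 3495 to 4473 CPM in dediHep-SOs. Ascl2 (chromosome 7, 142966829 to 142969264), a Wnt-responsive factor that maintains intestinal stem cells, had 0, 3 and 1 counts in aggregates and 1587, 1168 and 784 in dediHep-SOs (9.28 ± 0.56, FDR 1.24e-06). Lgr5 (chromosome 10, 115450311 to 115587780), the R-spondin receptor that marks those cells, had 0, 0 and 3 counts against 411, 237 and 416, or 132, 118 and 195 CPM in dediHep-SOs. Ephb2, which positions crypt cells, had no count in aggregates and 80.8, 68.4 and 64.2 CPM in dediHep-SOs, at least 130-fold higher, and Ephb3 had 0, 1 and 3 counts against 634, 370 and 456. In all 4 genes every dediHep-SO lay far above every aggregate.

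Genes that feed back on Wnt signaling were lower in level but had the same direction. Axin2 had no count in aggregates and 46, 31 and 98 in dediHep-SOs, at least 43.4-fold higher. Sp5 had no count in aggregates and 23, 18 and 137 in dediHep-SOs, at least 44.2-fold higher. The receptor ubiquitin ligases Rnf43 (log2 fold change 4.54 ± 0.61) and Znrf3 (2.63 ± 0.67) were called higher, with Znrf3 at 15.7, 22.5 and 64.7 CPM in dediHep-SOs. SO replicate 3 was the highest library for Axin2, Sp5, Rnf43 and Znrf3, and without it the call of Znrf3 was lost. The same library was the highest for Hopx, a marker of slowly dividing crypt cells, at 13.8, 28.0 and 133 CPM in dediHep-SOs and 0 in aggregates, and for Lrig1, whose call was also lost without it. The calls of Axin2, Sp5, Rnf43 and Hopx held without that library (FDR 0.000322, 0.00134, 0.000304 and 0.000338, edgeR quasi-likelihood test), and 14 genes of the list were then called higher.

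The motif CTTTGA, which TCF and LEF factors of the Wnt pathway recognise, lies in the same RefSeq windows for 4911 of 27025 genes (18.2%). Of the 17 Wnt-driven genes tested, 13 matched an entry, too few for a share over the list to be given, and 3 of the 13 held it. Fewer than 80% of the genes called higher or lower matched, so no share is given for them either. Genes called lower held it too, among them Rbp4 and Apoc4 at 2 places each. Whether the motif follows the direction of the call was not tested. Sp5 held it at 2 places, shown with the match in capitals because Sp5 is a direct target of the pathway.
Sp5 site 1, chr2:70474710-70474733, plus strand: actttgtcaCTTTGAgcactgcct
Sp5 site 2, chr2:70474810-70474833, plus strand: caaggccccCTTTGAtcaggaaaa

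Progenitor genes with wider expression were also higher. Sox9, a factor of crypts and bile ducts, was at 25.8, 138 and 93.9 CPM in aggregates and 582, 963 and 838 CPM in dediHep-SOs (3.20 ± 0.52). Prom1, which encodes CD133, was at 6.65, 13.3 and 5.16 CPM against 929, 1103 and 634 CPM (6.69 ± 0.46). Bmi1 was the single tested gene of the list that was not called, at 135, 86.8 and 79.5 CPM in aggregates and 55.1, 65.4 and 87.2 CPM in dediHep-SOs. Some stem cell markers stayed at or near 0. Olfm4 had 21, 2 and 7 counts in dediHep-SOs and Smoc2 had 0, 0 and 5, with 0 in aggregates, and neither reached the filter.

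Of 17 intestinal transcription factors tested, 10 were called higher and 2 lower (median log2 fold change 2.90). Cdx2, the homeobox factor of intestinal identity, was at 4.16, 23.9 and 5.68 CPM in aggregates and 87.5, 69.9 and 106 CPM in dediHep-SOs (2.90 ± 0.57, FDR 0.0032), so that it was detected in every aggregate but below every dediHep-SO. Its relative Cdx1 had 1 count in the 6 libraries. Gata5 had no count in aggregates and 101, 112 and 140 CPM in dediHep-SOs, at least 208-fold higher, while Gata4 and Gata6 were not called. Ehf, an epithelial ETS factor, had 2, 2 and 0 counts against 1669, 1570 and 773 (9.43 ± 0.64). Klf5, which supports crypt proliferation, was at 11.6, 27.0 and 17.0 CPM against 215, 272 and 129 CPM (3.44 ± 0.43). Spdef, a goblet cell factor, had no count in aggregates and 44.6, 29.0 and 41.7 CPM in dediHep-SOs. Atoh1, the switch to secretory fates, had only 2 counts in each dediHep-SO and none in aggregates. The factors called lower were Creb3l3, shared with the hepatocyte list, and Maf.

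Genes of differentiated enterocytes did not share a direction. Of 27 tested, 9 were called higher and 10 lower, with a median log2 fold change of −1.13. Surface and adhesion genes were among those higher. Gpa33, an intestinal surface antigen, was at 1.66, 25.2 and 3.10 CPM in aggregates and 444, 648 and 681 CPM in dediHep-SOs (5.78 ± 0.82). Cdh17, liver-intestine cadherin, was at 2.50, 34.5 and 6.71 CPM against 118, 116 and 131 CPM (2.99 ± 0.69), and Lgals4 at 10.8, 127 and 33.5 CPM against 783, 800 and 549 CPM. Aggregate replicate 2 was the highest aggregate for Gpa33, Cdh17, Lgals4 and Cdx2. Absorptive genes were among those lower. Fabp1, a fatty acid binding protein, was at 299, 299 and 288 CPM in aggregates and at 0 counts in dediHep-SOs, at least 714-fold higher in aggregates. Fabp2, named for the intestine, had 39, 142 and 53 counts in aggregates and 0 in dediHep-SOs. Apoa4 had 406, 814 and 1618 counts against 0, 0 and 1. The brush border genes Vil1, at 260, 344 and 146 CPM against 311, 275 and 320 CPM, and Ezr, at 376, 660 and 357 CPM against 683, 739 and 483 CPM, were not called. Sis, which encodes sucrase-isomaltase, had no count in the 6 libraries.

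Mucus and goblet cell genes were called higher for 10 of 14 tested and lower for 2 (median 4.23, or 4.22 with lower bounds). Muc1, a mucin of the cell surface, had 1, 5 and 2 counts in aggregates and 512, 371 and 423 in dediHep-SOs (6.91 ± 0.45, FDR 1.8e-06). Tff2 had no count in aggregates and 38.5, 38.0 and 32.8 CPM in dediHep-SOs. Tff3, the trefoil factor of goblet cells, went the other way, at 1136, 457 and 1062 CPM in aggregates and 88.5, 73.4 and 33.7 CPM in dediHep-SOs (−3.76 ± 0.47). Muc2, the secreted mucin of the gut, had 66, 60 and 7 counts in dediHep-SOs and 1 in aggregates and did not reach the filter. Agr2, which folds that mucin, had 111 counts in SO replicate 3 and 5 and 6 in the other two.

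Paneth and endocrine genes were mostly absent. Of 17 Paneth cell genes listed, 10 had no count in the 6 libraries, including all listed defensins, and 4 were tested. Mmp7 (chromosome 9, 7692090 to 7699585), which processes defensins and is also made by injured bile ducts, had 1, 0 and 0 counts in aggregates and 4018, 3878 and 3235 in dediHep-SOs. Its fitted log2 fold change of 12.64 ± 0.62 had the smallest p among the genes called higher, and 2 of the dediHep-SO counts stood close to the UMI limit. Itln1 had no count in aggregates and 53, 28 and 25 in dediHep-SOs, while Lyz1, the Paneth cell lysozyme, had 7 counts in SO replicate 3 and none elsewhere. Of 32 enteroendocrine and tuft cell genes, 15 had no count and 2 were tested. Dclk1, a kinase of tuft cells and some progenitors, had 1, 0 and 2 counts in aggregates and 496, 366 and 239 in dediHep-SOs, but the tuft cell factor Pou2f3 and the channel Trpm5 did not reach the filter.

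Markers of fetal or regenerating gut epithelium were all tested, and 14 of 27 were called higher and 3 lower (median 2.08). Ly6a, which encodes Sca-1, was at 1.66, 52.7 and 13.9 CPM in aggregates and 996, 1365 and 856 CPM in dediHep-SOs (5.49 ± 0.90). Anxa1 had 4.16, 10.6 and 1.55 CPM against 52.6, 105 and 317 CPM (4.79 ± 0.83, or 3.78 without SO replicate 3). Clu, the marker of revival stem cells, was high in both cultures, at 1037, 1398 and 1003 CPM in aggregates and 1280, 1966 and 1537 CPM in dediHep-SOs (0.48 ± 0.27, not called), with up to 3993 counts in a dediHep-SO, close to the UMI limit. The members called lower were Ereg and the imprinted fetal pair H19 and Igf2. H19 (chromosome 7, 142575529 to 142578143), a noncoding RNA of fetal liver, had 3675, 4045 and 3855 counts in aggregates, close to the UMI limit, and 2, 0 and 6 in dediHep-SOs (−10.92 ± 0.68). Igf2, its neighbor and a fetal growth factor, had 67, 947 and 245 counts against 0, 0 and 1.

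Mucosal defence genes, 25 tested, were called higher for 10 and lower for 3 (median 0.98). Duox2, a peroxide-forming oxidase, had 3, 1 and 0 counts in aggregates and 1260, 1015 and 1200 in dediHep-SOs (9.22 ± 0.64), and Duoxa2, its maturation factor, was at least 47.6-fold higher. Pigr, which carries immunoglobulin A across epithelia, was at 6.65, 0.443 and 3.61 CPM against 654, 593 and 548 CPM. Sftpd, a collectin, had 1, 2 and 0 counts against 1330, 721 and 749. Those lower were the acute phase genes C3, given above, Saa3, with 85, 76 and 337 counts in aggregates and 1, 0 and 0 in dediHep-SOs, and Lcn2. Lcn2 was at 285, 865 and 1181 CPM in aggregates and 231, 202 and 122 CPM in dediHep-SOs (−2.07 ± 0.48), and lost its call without aggregate replicate 3, without SO replicate 3 and under 3 other settings.

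**Figure D3:**
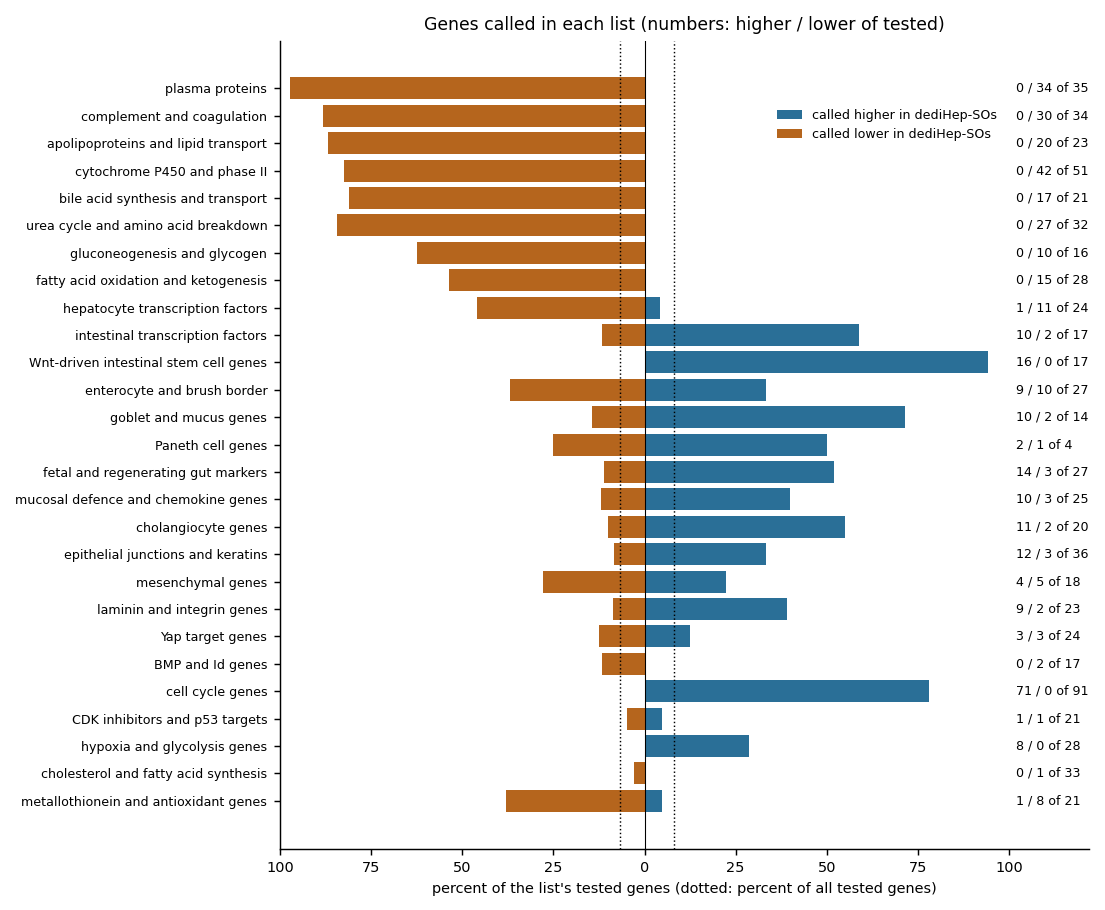
Share of the tested genes of each list called higher (right) or lower (left) in dediHep-SOs, in percent, with the counts at the right and the share over all genes tested as dotted lines. The first 8 lists, all of hepatocyte functions, have only genes called lower, whereas the Wnt-driven (16 of 17), cell cycle (71 of 91) and hypoxia (8 of 28) lists have only genes called higher.

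Genes of bile duct epithelium were called higher for 11 of 20 tested and lower for 2 (median 2.34). Epcam was at 1.66, 11.1 and 1.55 CPM in aggregates and 224, 292 and 386 CPM in dediHep-SOs (5.85 ± 0.65). Krt19 was at 9.98, 35.4 and 19.6 CPM against 307, 316 and 247 CPM (3.70 ± 0.44), and Krt7 at 177, 134 and 128 CPM against 838, 1008 and 809 CPM (2.60 ± 0.28). Aqp1, a water channel, was at 33.3, 6.20 and 3.61 CPM against 665, 522 and 143 CPM. Several of these genes are also listed as stem cell, goblet or fetal gut genes, and the list alone does not separate duct from intestine. Cftr, the chloride channel of both, had 9, 7 and 54 counts in dediHep-SOs and 1 in aggregates and did not reach the filter.

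Junction and keratin genes were called higher for 12 of 36 tested and lower for 3 (median 0.93). Krt8 and Krt18, unlike Krt7 and Krt19 above, were not called. Krt8 was at 635, 1092 and 954 CPM in aggregates and 939, 1071 and 1024 CPM in dediHep-SOs, and Krt18 at 700, 1010 and 1348 CPM against 1108, 1409 and 1122 CPM. Cdh1, which encodes E-cadherin, was at 512, 544 and 495 CPM against 683, 1012 and 1081 CPM, with an FDR of 0.0381 and a log2 fold change of 0.84 ± 0.27, too small to be called. Gjb1, the main connexin of hepatocytes, was at 593, 392 and 466 CPM in aggregates and 51.0, 39.0 and 15.5 CPM in dediHep-SOs. Cdh2, which encodes N-cadherin and is made by hepatocytes, was lower (−4.94 ± 0.67). Cldn4 was higher (4.55 ± 0.90), and Cldn7 had 335 counts in SO replicate 3 but 0 and 1 in the other dediHep-SOs.

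Mesenchymal genes, followed because dediHeps in monolayer carry some of them, were called higher for 4 of 18 tested and lower for 5 (median −0.16). Vim, which encodes vimentin, was at 8.32, 34.1 and 24.3 CPM in aggregates and 39.8, 31.5 and 1.87 CPM in dediHep-SOs (0.11 ± 0.83), a spread wider than any difference of the means. Sparc (−4.75 ± 0.78), Axl (−2.97 ± 0.58), Zeb1 (−3.11 ± 0.79) and Cald1 (−3.37 ± 0.37) were called lower. Lamb1, a laminin chain, was called higher, at 0.832, 2.21 and 0.516 CPM in aggregates and 76.3, 55.9 and 32.3 CPM in dediHep-SOs (5.37 ± 0.59). Laminins and their integrins were called higher for 9 of 23 and lower for 2 (median 0.48). Chains of epithelial basement membrane laminin were among those higher. Lama3 had no count in aggregates and 20.2, 31.0 and 40.3 CPM in dediHep-SOs, and Lamb3 was at 5.82, 17.7 and 15.5 CPM against 133, 129 and 117 CPM. Itgb4 (3.58 ± 0.45) and Itga6 (2.14 ± 0.40), which pair as a laminin receptor, were higher, and the call of Itga6 was lost without aggregate replicate 1, without SO replicate 3 and with a culture block over 11 libraries. Matrigel supplies laminin to dediHep-SOs alone.

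Yap target genes were called higher for 3 of 24 tested and lower for 3 (median 0.42), beside 8.04% and 6.81% of all genes tested. Ccn2 was at 0, 2.21 and 2.58 CPM in aggregates and 9.94, 12.5 and 77.8 CPM in dediHep-SOs (4.18 ± 1.00, or 2.59 without SO replicate 3), a call that was lost when monolayer dediHeps joined the fit. Ccn1 was at 1.66, 5.75 and 11.9 CPM against 3.53, 2.00 and 13.1 CPM, and Ankrd1 at 2.50, 55.3 and 29.9 CPM against 24.4, 41.9 and 135 CPM, neither of them called. Of 17 BMP pathway genes tested 2 were called lower and 0 higher (median 0.53), or 11.8% beside 14.9% of all genes tested. Noggin, a BMP antagonist, was in the medium of dediHep-SOs. Id1, a direct target of the pathway, was at 225, 227 and 39.7 CPM in aggregates and 221, 223 and 396 CPM in dediHep-SOs (0.78 ± 0.56), and Id2 was not called either. Hamp, the hepatocyte hormone hepcidin and also a target of the pathway, had 67, 420 and 92 counts in aggregates and 0 in dediHep-SOs.

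Cell cycle genes were called higher in dediHep-SOs for 71 of 91 tested and lower for 0, with a median log2 fold change of 3.55. In 84 of the 91 every dediHep-SO lay above every aggregate, where 22.3% of all genes tested did so. Summed CPM were 1272 to 2189 in aggregates and 7649 to 8488 in dediHep-SOs. Mki67 (chromosome 7, 135689784 to 135716361), the proliferation marker, had 1, 9 and 26 counts in aggregates and 716, 574 and 924 in dediHep-SOs (5.61 ± 0.67, FDR 0.000162). Top2a, the topoisomerase of dividing cells, was at 1.66, 15.5 and 40.3 CPM against 536, 712 and 476 CPM. Among cyclins, Ccnd1 was at 19.1, 103 and 56.3 CPM against 249, 331 and 566 CPM (2.67 ± 0.55), and Ccnb1 of mitosis at 0.832, 1.33 and 4.13 CPM against 54.2, 51.9 and 44.5 CPM (4.48 ± 0.52). The replication helicase gene Mcm5 was at 0, 3.98 and 17.5 CPM against 155, 91.4 and 53 CPM. Aggregate replicate 1 was the lowest aggregate for each of these 5 genes. Pcna (1.64 ± 0.35) had an FDR under 0.1 but too small a fold, and Pttg1, which encodes securin, had a negative fold change (−1.63 ± 0.45, not called).

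Of the inhibitors that hold cells out of cycle and of p53 targets, 1 of 21 was called higher and 1 lower (median 0.12). Together these made 9.52%, beside 14.9% of all genes tested. Cdkn1a, which encodes p21, was at 475, 628 and 586 CPM in aggregates and 595, 729 and 268 CPM in dediHep-SOs (−0.09 ± 0.35), and Cdkn1b was not called. Hypoxia and glycolysis genes were called higher for 8 of 28 and lower for 0 (median 1.42). Car9, a carbonic anhydrase induced by hypoxia, had 0, 1 and 0 counts in aggregates and 65, 44 and 161 in dediHep-SOs, Egln3, an oxygen sensor, was at 30.8, 32.3 and 15 CPM against 531, 534 and 196 CPM (4.02 ± 0.48), and Hk2 was higher too (3.63 ± 0.51). Slc2a1 and Ldha were not called. Of 33 genes of cholesterol and fatty acid synthesis, 1 was called lower and 0 higher (median −0.51). That gene was Scd1, a desaturase, at 2329, 837 and 1710 CPM in aggregates and 171, 139 and 129 CPM in dediHep-SOs. Metallothionein and antioxidant genes were called lower for 8 of 21 and higher for 1 (median −1.63). Mt2 was at 1911, 1167 and 1151 CPM against 140, 120 and 141 CPM (−3.40 ± 0.31). The exception was Gpx2, the glutathione peroxidase of the gut, with no count in aggregates and 521, 475 and 550 CPM in dediHep-SOs, at least 930-fold higher and the largest bound among genes called higher.

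The genes with the strongest differences were not all members of these lists. Among the 15 with the smallest p in the higher direction were Plekhs1, with 1, 0 and 0 counts in aggregates and 1310, 901 and 897 in dediHep-SOs, the retinol receptor Stra6, with 1, 0 and 0 against 1336, 925 and 663, the potassium channel gene Kcnq1, with 0, 5 and 0 against 2132, 1621 and 1874, the peptidoglycan sensor Pglyrp1, with 0, 3 and 0 against 1408, 1126 and 629, and Atg9b. Among the 10 with the largest fitted fold were the collagen gene Col14a1, at least 776-fold higher, and the potassium channel gene Kcnk1, at least 553-fold higher, both without a count in aggregates. Krt4 (at least 227-fold), a keratin of stratified mucosa, S100a14 (at least 225-fold) and Gkn3 (at least 227-fold), a gastrokine, followed. SO replicate 3 was the highest library for Gkn3, with 66.4, 55.4 and 280 CPM in dediHep-SOs, and for Tnfrsf11b, with 46.8, 54.9 and 254 CPM. Reg3g, a bactericidal lectin of the gut, had 93.3, 103 and 295 CPM and no count in aggregates. Reg3b, its relative, had 69, 24 and 702 counts (FDR 0.0501), and that call was lost with DESeq2 and without the filter. In the lower direction the leading genes included Fga, Fgb, Gc, Apoa1, Cyp2d10 and Lpl, all members of the lists above.

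Markers of other liver cells were scarce in both groups. Of 15 stellate cell and fibroblast markers none reached the filter, and their summed level was 1.66 to 4.13 CPM in aggregates and 1.41 to 2.00 CPM in dediHep-SOs. Of 16 macrophage and leukocyte markers 12 had no count in the 6 libraries, among them Adgre1, Clec4f and C1qa. Their summed level was 4.16 to 19 CPM in aggregates and 10.3 to 22.5 CPM in dediHep-SOs, held by Csf1r and Cd68, and Cd68 was called higher (2.2 ± 0.56), a call lost without aggregate replicate 2 and with a block for culture. Of 15 endothelial markers, 1 was tested. Flt1, at 4.16, 182 and 19.1 CPM in aggregates and 135, 81.4 and 38.9 CPM in dediHep-SOs, made up much of a summed level of 8.32 to 188 CPM in aggregates and 42.7 to 139 CPM in dediHep-SOs and was not called, while Tek, Stab2, Clec4g and Plvap were at 0. The labels give all 6 libraries as hepatocytes. Alb, Fga and Cps1 were high in every aggregate, whereas in dediHep-SOs these 3 genes had 1 count or none per library.

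The called genes were then located in groups outside the comparison, on a scale where the aggregate mean is 0 and the dediHep-SO mean is 1. Because the genes were selected on these 2 groups, the positions are given as a description, with no test. For genes called higher in dediHep-SOs the median position was −0.06 in fresh hepatocytes, 0.40 in monolayer dediHeps (0.27 to 0.53 over 5 libraries), 0.87 in FIPC-SOs and 0.83 in ISC-BOs. For genes called lower it was −0.16 in fresh hepatocytes, 0.64 in monolayer dediHeps (0.50 to 0.85), 1.00 in FIPC-SOs and 0.88 in ISC-BOs. In BOs grown from dediHeps with forced Cdx2 expression (dediHep-BOs), the medians were 0.85 for genes called higher and 0.90 for those called lower. A gene such as Alb, without a count in dediHep-SOs or FIPC-SOs, lies at exactly 1. The value of 1.00 thus partly reflects shared absence. Above 0.75, on the side of dediHep-SOs, lay 59.4% of the genes called higher in FIPC-SOs and 54.6% in ISC-BOs, and 76.6% and 57.8% of the genes called lower. Below 0.25, on the side of aggregates, lay 81.6% of the genes called higher and 75.7% of those called lower in fresh hepatocytes.

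**Figure D4:**
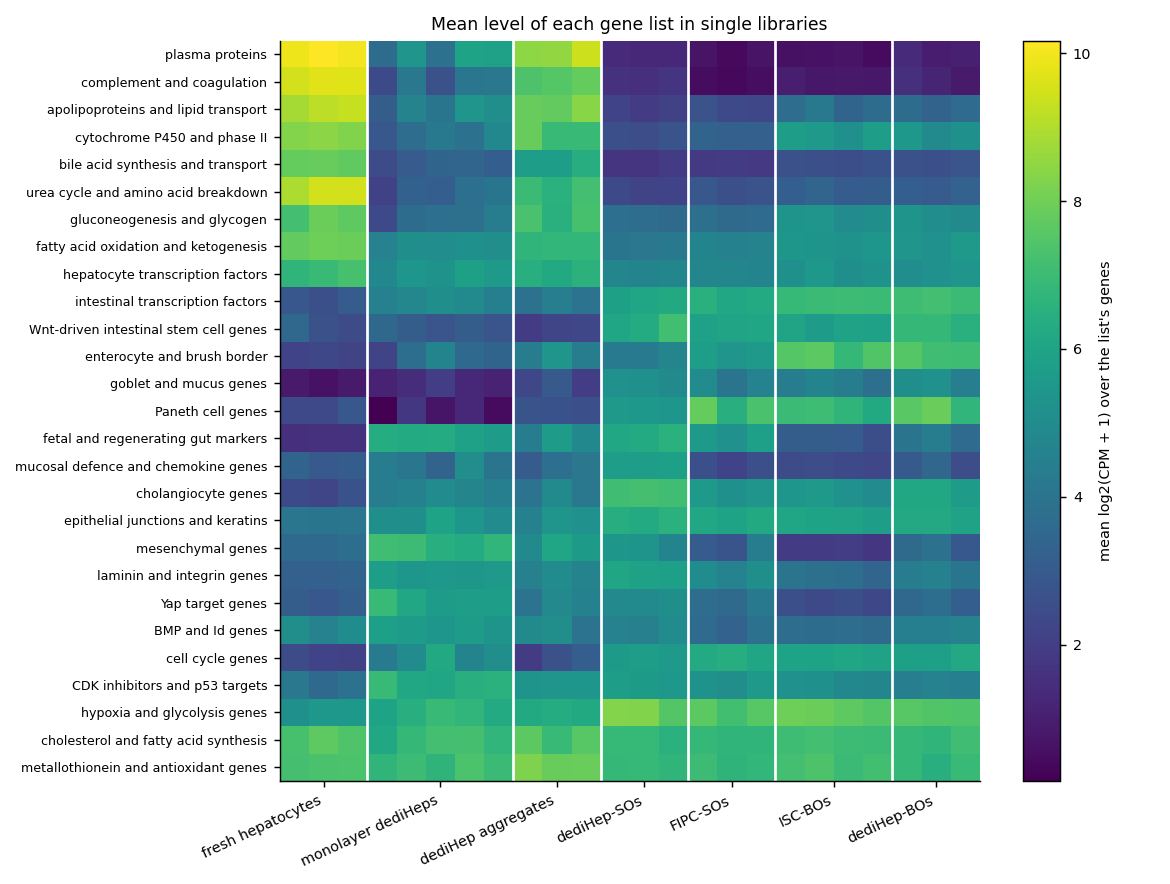
Mean log2(CPM + 1) over the tested genes of each list (rows) in single libraries (columns) of 7 groups, scaled over all 49 libraries of the series. Plasma protein genes are high in fresh hepatocytes and aggregates and low in dediHep-SOs, and cell cycle genes are low in fresh hepatocytes and aggregates and higher in the organoids.

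**Figure D5:**
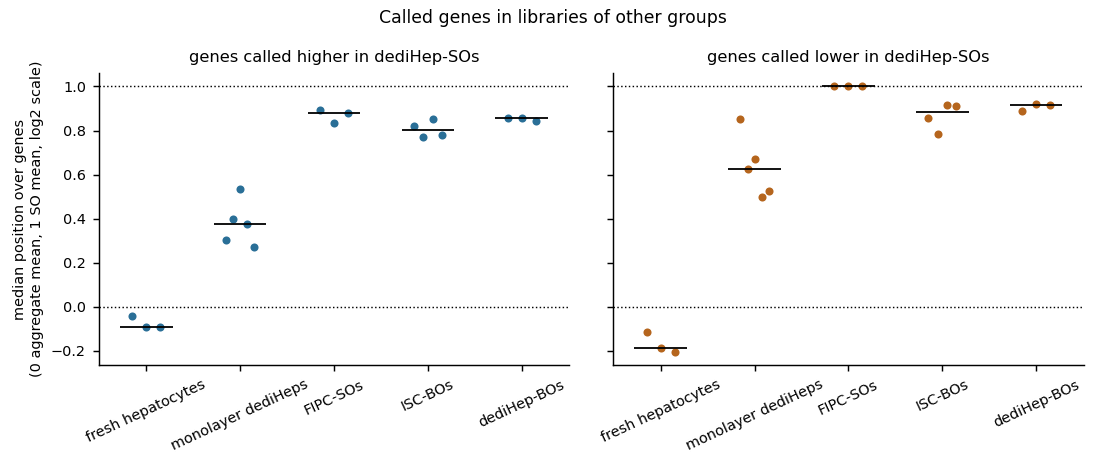
Median position over the 889 genes called higher (left) and the 753 called lower (right) in each library of 5 other groups, where 0 is the aggregate mean and 1 the dediHep-SO mean on the log2 scale. Points are libraries and bars the median over libraries, and monolayer dediHeps lie between the dotted lines in both panels.

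Single genes filled in this picture, with CPM scaled over all 49 libraries. Alb was at 4431 CPM in fresh hepatocytes (mean, n = 3), between 63.0 and 949 CPM in monolayer dediHeps (n = 5), and at 0 counts in FIPC-SOs (n = 3). H19 was at 0 in fresh hepatocytes but between 51.0 and 1386 CPM in monolayer dediHeps, below every aggregate. Tff3 was at 0.740 CPM in fresh hepatocytes and between 0.474 and 31.5 CPM in monolayer dediHeps, below its level in both three-dimensional cultures, and between 167 and 445 CPM in ISC-BOs (n = 4). Ascl2 was at 0 in fresh hepatocytes, 0 to 5.14 CPM in monolayer dediHeps, 131 ± 65 CPM (SD) in FIPC-SOs and 229 to 662 CPM in ISC-BOs. Lgr5 was at 0 to 1.51 CPM in monolayer dediHeps and 92.9 to 157 CPM in ISC-BOs. Cdx2 was at 2.24 to 120 CPM in monolayer dediHeps, 331 CPM in FIPC-SOs and 296 to 359 CPM in ISC-BOs. Hnf4a was at 401 CPM in fresh hepatocytes, 158 CPM in FIPC-SOs and 332 to 390 CPM in ISC-BOs. Vim was at 129 to 566 CPM in monolayer dediHeps, above every aggregate and every dediHep-SO. Mki67 was at 81.9 to 594 CPM in monolayer dediHeps and 265 to 893 CPM in ISC-BOs.

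Some of the genes higher in dediHep-SOs were low or absent in FIPC-SOs or ISC-BOs. Their levels in BOs grown from dediHeps are not given here. Muc1 was at 0.977 CPM in FIPC-SOs and at most 0.438 CPM in ISC-BOs. Spp1, a secreted protein of ducts and injured epithelium, was at 9.11 CPM in FIPC-SOs and at 0 in ISC-BOs, but between 190 and 852 CPM in monolayer dediHeps. Its call was lost without aggregate replicate 1, aggregate replicate 3 or SO replicate 2, and with a culture block over 6 libraries. Sftpd was at 6.26 CPM in FIPC-SOs and at 0 counts in ISC-BOs, and Col14a1 at 0.677 CPM in FIPC-SOs. In contrast Lyz1, nearly absent from dediHep-SOs, was at 333 CPM in FIPC-SOs and 1156 to 1724 CPM in ISC-BOs, and Itln1 was at 531 CPM and 994 to 1510 CPM.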

How the data were processed

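The authors deposited raw UMI counts per gene for 49 CEL-Seq2 libraries of 16 groups, and all columns were used as deposited. The submitters' processing notes name bcl2fastq 2.20, Bowtie2 2.3.1, HTSeq 0.6.0 and GRCm38, without their order. RNA was prepared with ISOGEN II or RNeasy, and which kit served which library is not given in the sources used here. Of 46078 identifiers, 45143 matched a symbol in GENCODE M21.

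Only the 6 libraries compared entered the fit, in edgeR 4.0.16 (R 4.3.3): filterByExpr (minimum count 10, minimum total 15), TMM, the quasi-likelihood F-test with robust dispersion and Benjamini-Hochberg adjustment over 11056 genes. Calls were made at FDR < 0.1 with an absolute log2 fold change above 2. SEs are those implied by F. CPM carry TMM factors. Libraries of a group carry different codes, read here as cultures, but nothing says whether they came from separate animals. The p-values measure the spread between these libraries, and how much of it is technical is not known. Intervals (95%) and floors (3 counts) cover counting error only. Within-culture ratios and positions used log2(CPM + 1) (positions: genes whose group means differ by over 1). Scripts were tested on simulated data.

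Named genes were those of the study, the 15 called genes with the smallest p and the 10 with the largest fold in each direction, and members of 31 gene lists. Members and lists were chosen with earlier results of these data known. Lists share genes. Families such as Serpina1, Serpina3, Cyp2c, Orm and Ugt2b are alike in sequence, and how the counting split reads among their members is uncertain. Promoter sequences are from RefSeq.

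Alternatives were RLE normalization, DESeq2 1.42.0, no filter or 10 CPM in at least 3 libraries, 11 or 49 libraries in 1 fit, a block for the replicate number or culture, a correction for UMI collisions, counts thinned to the smallest total, other thresholds and leaving out each library. Certain genes are not reported here.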

Additional observations from a re-analysis of the deposited data

Results flagged for a closer look

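Among the levels given for groups outside the comparison, 1 library stood apart from the rest of its group in 7 cases, by the gap to its nearest neighbor over the range. For normally distributed values, chance gives such a gap in about 1 in 20 groups. That rate does not hold for genes near the counting floor. Among ISC-BOs only replicate 3 had any Alb count, so its gap equals the range whatever its level. The number of levels examined is not given, so the 7 cases cannot be set against that rate. They are listed as a description only. In ISC-BOs (n = 4), replicate 3 was the highest for Alb (0.85 CPM) and for Afp (11.1 CPM), and replicate 2 stood apart for H19 (1.26 CPM), Apoe (20.5 CPM) and Mki67 (265 CPM, the lowest). In monolayer dediHeps (n = 5), replicate 3 was the highest for Epcam (32.1 CPM) and replicate 1 the highest for Vim (566 CPM). None of these libraries enters the test between dediHep-SOs and aggregates.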

How the results depend on the processing

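No called gene changed sign under any alternative. With RLE normalization 1649 genes were called, with DESeq2 1646, with 10 CPM required in at least 3 libraries 1338, with 11 dediHep libraries in 1 fit 1757, with UMI collisions corrected 1694 and with counts thinned to the smallest total 1512, against 1642. Without the filter on low counts 2616 were called (1414 higher and 1202 lower), as more genes were tested. With all 49 libraries in 1 fit 2424 genes were called, 1284 higher and 1140 lower, and goblet and mucus genes higher numbered 18, or 17 without the filter. With 10 CPM required, 5 enterocyte genes were called lower. With the thresholds moved to 0.05 for the FDR and 1 for the log2 fold change, 2880 genes were called (1439 higher and 1441 lower), with 18 hypoxia and glycolysis genes higher and 13 metallothionein and antioxidant genes lower. Leaving out each library in turn gave 1800 to 1914 genes, 945 to 1102 higher and 796 to 920 lower. Title numbers match the culture codes for 1 pair only. Deviations from group means correlated at −0.16, 0.06 and −0.11 for same-numbered libraries. For the 2 pairs that share a code they correlated at −0.16 and −0.07. Such deviations, taken within groups of few libraries, cannot tell which pairing holds. A replicate block gave 1681 calls, and a block for culture gave 1700 with 6 libraries and 1642 with 11. The equal total of 1642 did not hold the same genes. Of the genes called in the main fit, 1615 stayed called with the replicate block. With the culture block 1533 stayed called with 6 libraries and 1450 with 11, where 828 genes were higher and 814 lower. Without SO replicate 3, 1510 stayed called. Genes near 3 counts and genes near the UMI limit are the ones that depth leaves least certain.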

Other observations

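Genes of the stomach and of Notch signaling were added after the values were seen. Ctse, cathepsin E of gastric mucosa, had 0, 2 and 0 counts in aggregates and 78, 74 and 141 in dediHep-SOs, and was called higher (log2 fold change 6.66 ± 0.79). Pgc, which encodes pepsinogen C, had 3, 2 and 270 counts in dediHep-SOs and 2, 0 and 1 in aggregates. The other gastric genes were at or near 0 in both groups. Gkn1 had 1 count in the 6 libraries, Sox2 had 0, Muc5ac had at most 2 in any library and Muc6 at most 1, while Gkn2 had 5, 21 and 1 counts in aggregates and 0, 0 and 2 in dediHep-SOs.

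No Notch gene was called. Notch1 was at 66.5, 32.3 and 31.5 CPM in aggregates and 11.5, 16 and 22 CPM in dediHep-SOs (−1.39 ± 0.43), and Notch2 at 29.9, 36.3 and 45.9 CPM against 13.1, 15.5 and 9.37 CPM (−1.56 ± 0.37). The ligand gene Jag2 was at 15, 12 and 9.81 CPM against 49.4, 38.0 and 37.0 CPM (1.77 ± 0.36). In these 3 genes the groups did not overlap, as in 44.5% of all genes tested. The ligand genes Dll1 and Dll4 had no more than 9 counts in any library, and the target Hey1 had 1 count in all.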
